A study of Mus musculus with 2 samples.

Results

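Small leucine-rich proteoglycans (SLRPs) are secreted matrix proteins built around a row of leucine-rich repeats, and 10 genes of this family were followed here among the 44291 genes listed for each library: Aspn, Dcn, Bgn, Lum, Fmod, Ogn, Prelp, Omd, Podn and Ecm2. The set was chosen by a measured value, since Aspn was among the genes with the lowest ratio between the same 2 libraries that are compared below, and the other 9 genes were added as its relatives. Every difference between the libraries is therefore given as a description, without a test. All 10 genes were found in both libraries by their gene symbol.

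The cells were primary wild-type (WT) fibro-adipogenic progenitors (FAPs) of the mouse, mesenchymal cells that lie between muscle fibres and can become adipocytes or fibroblasts. By its label, one culture received platelet-rich plasma (PRP). The study's own account of the sequenced cells instead names exosomes prepared from such plasma of young donors, and its methods describe human blood. The control culture received vehicle. Both were then kept in adipogenic induction medium, which was DMEM with insulin at 10 μg/ml, the glucocorticoid dexamethasone at 0.25 μM, the phosphodiesterase inhibitor IBMX at 0.5 mM and FBS at 20%, so the control cells were also in the process of adipogenic induction. The methods of the study describe the cells as sorted by flow cytometry from hind limb muscles of C57BL/6 mice, and give up to 3 days as the time in induction medium, whereas the time at which these libraries were taken and the number of animals or cultures behind a library are not given in the sources used here. Each group has 1 library, so no difference has a replicate check.

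SLRPs bind collagen fibrils and govern how fibrils grow and pack, and several of them also hold growth factors such as TGF-β or act on receptors at the cell surface. They are sorted into classes by sequence. Class I includes decorin (Dcn), biglycan (Bgn) and asporin (Aspn), class II includes lumican (Lum), fibromodulin (Fmod), osteomodulin (Omd) and Prelp, class III includes osteoglycin (Ogn), and class V includes podocan (Podn). Decorin and biglycan carry chondroitin or dermatan sulfate chains, fibromodulin and lumican carry keratan sulfate, and asporin, which has a run of aspartate residues at its start, is not a typical proteoglycan because it lacks the usual chain attachment site. In skeletal muscle, mesenchymal cells are a main source of these proteins.

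Reads assigned to genes numbered 40120843 for PRP and 34139741 for control. Where a pair of values is given below, PRP comes first. Levels are in FPKM, the authors' unit, in which reads are scaled to the length of a gene's exons and to the library's assigned reads. Multiplied by the exon length of a gene, they gave whole reads for all 10 SLRP genes, and these read numbers are the depth behind each value. Intervals of a ratio are exact Clopper-Pearson 95% intervals on reads divided by 2, they cover counting error only, and they compare 2 libraries and not 2 treatments. The label of the cells was checked against markers. Of 7 FAP markers, 6 had an average FPKM of no less than 1 (Pdgfra 19.8 FPKM in PRP and 28.0 in control, Ly6a 59.9 and 66.4), and Pi16 was near 0 (0.0313 and 0.0598). The muscle stem cell gene Pax7 was at 0 reads in both libraries.

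The family was expressed very unevenly. The summed level of the 10 genes was 229.5 FPKM in PRP and 300.9 FPKM in control. Bgn alone made up 74.8% and 71.4% of that sum, and Prelp made up 19.8% and 20.1%. The other 8 genes together reached 12.4 FPKM in PRP and 25.6 FPKM in control, a ratio of 0.482 that rests on Aspn. Without Aspn, 7 genes summed to 9.77 and 12.98 FPKM, a ratio of 0.753. In bulk RNA, fewer cells of a type and less RNA per cell cannot be told apart.

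**Figure D1:**
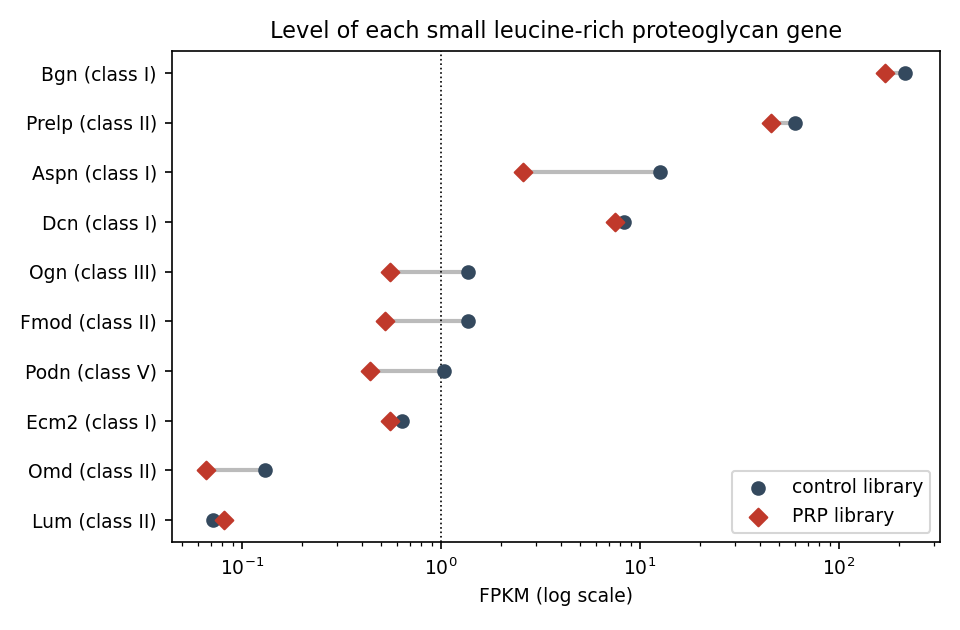
Level of each of the 10 SLRP genes, with FPKM on a log axis, the PRP library as red diamonds and the control library as dark circles, and a dotted line at 1 FPKM. Bgn and Prelp lie far above the others with little distance between the libraries, whereas Aspn lies at 12.6 FPKM in control and 2.58 FPKM in PRP.

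Class I held both the most abundant gene and the gene with the lowest ratio. Aspn (ENSMUSG00000021388, GRCm38 chromosome 13, 49544443 to 49567565, plus strand) had 2.58 FPKM in PRP and 12.6 FPKM in control, from 244 and 1016 reads. The control level was 4.89 times the PRP level, and the ratio of PRP over control was 0.204 (95% interval 0.166 to 0.249). Asporin binds collagen and TGF-β and is best known from tendon, cartilage and periodontal ligament. Its place by level went from 3725 among all listed genes in control to 9700 in PRP.

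On the scale of log2(FPKM + 1), which dampens the change of low genes, Aspn differed by -1.93 (PRP minus control). Among the 7033 genes with an average FPKM of no less than 5 it was the 4th from the lowest, and this low place is why the family was picked. Idi1, the gene that came next, had 7.31 and 28.4 FPKM (-1.82), and Dkk3, which followed, had 6.11 and 22.0 FPKM (-1.69). These genes and Idi1-ps1, a processed pseudogene of Idi1 (3.46 and 18.8 FPKM, -2.15), were also nearest to Aspn in fold change among genes with whole reads and an average of 5 FPKM or more. Genes outside these limits can lie closer, as did Gm55194 (2.86 and 13.9 FPKM, -1.95). It has no entry in the annotation used (GENCODE M21), so its reads could not be worked out. Likeness here means the absolute difference in that log2 fold change, 0.11 for Idi1, 0.22 for Idi1-ps1 and 0.23 for Dkk3, since 2 libraries give no further pattern. Idi1 and Idi1-ps1 can share reads, so the value of the pseudogene is uncertain.

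Bgn (ENSMUSG00000031375, chromosome X, 73483602 to 73495933, plus strand) had 171.7 FPKM in PRP and 214.8 FPKM in control, from 42010 and 44734 reads. The ratio was 0.799 (0.784 to 0.814), the narrowest interval of the family. Biglycan binds collagen, and the free protein can act on Toll-like receptors. Dcn (ENSMUSG00000019929, chromosome 10, 97479609 to 97518143, plus strand) had 7.54 and 8.36 FPKM, from 1766 and 1667 reads, with a ratio of 0.901 (0.819 to 0.992). Decorin, like asporin, binds collagen and TGF-β, and is found in most connective tissues. Of Aspn, Bgn and Dcn, Dcn thus had the ratio nearest to 1, and the upper end of its interval lies just under 1. Ecm2, which encodes a matrix protein with leucine-rich repeats, had 0.558 and 0.640 FPKM from 127 and 124 reads, and its ratio of 0.872 (0.604 to 1.26) was within counting error.

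In the control library Aspn stood above Dcn per kilobase of all merged exons, and in PRP Dcn stood above Aspn. This order depends on the length used. The merged exons of Dcn in GENCODE M21 add up to 5838 bases, but its principal coding transcript has 1758. Per kilobase of the principal transcript Dcn reached 25.0 FPKM in PRP and 27.8 FPKM in control, against 2.61 and 12.8 FPKM for Aspn, so that Dcn was higher in both. Bgn has 6099 merged bases and a principal transcript of 2419, which would put it at 432.9 and 541.7 FPKM. Ratios between the libraries are the same for either length.

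Class II spanned a wide range of levels. Prelp (ENSMUSG00000041577, chromosome 1, 133910304 to 133921414, minus strand) had 45.5 FPKM in PRP and 60.4 FPKM in control, from 6597 and 7458 reads, with a ratio of 0.753 (0.718 to 0.789). Its protein links basement membranes to the collagen beneath. Fmod (ENSMUSG00000041559, chromosome 1, 134037254 to 134048277, plus strand), which encodes a keratan sulfate proteoglycan that guides collagen fibril growth in tendon, had 0.528 and 1.36 FPKM from 70 and 154 reads. Its ratio was 0.387 (0.252 to 0.584).

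Lumican and osteomodulin were barely detected. Lum (chromosome 10, 97565128 to 97572703, plus strand) had 8 reads in PRP and 6 in control, which is 0.0815 and 0.0718 FPKM. Lumican is a keratan sulfate proteoglycan that many fibroblasts make together with decorin. The ratio of 1.13 had an interval from 0.192 to 7.75, so no difference was detectable at this depth. Omd, best known from bone, had 6 and 10 reads (0.0665 and 0.130 FPKM), and its ratio of 0.511 (0.0793 to 2.62) was equally undecided.

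The class III and class V genes were low in both libraries, with the lower value in PRP. Ogn (ENSMUSG00000021390, chromosome 13, 49608046 to 49624501, plus strand) had 0.554 FPKM in PRP and 1.37 FPKM in control, from 57 and 120 reads, with a ratio of 0.404 (0.249 to 0.641). Osteoglycin, also called mimecan, is a collagen-binding protein of many connective tissues. Podn (ENSMUSG00000028600, chromosome 4, 108014791 to 108096445, minus strand) had 0.444 and 1.04 FPKM from 76 and 151 reads, with a ratio of 0.428 (0.282 to 0.641). Podocan binds collagen and was named after the podocytes of the kidney. The intervals of Fmod, Ogn and Podn overlap widely, and the upper end of the Aspn interval (0.249) lay at the lower end for Ogn and below those for Fmod and Podn.

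**Figure D2:**
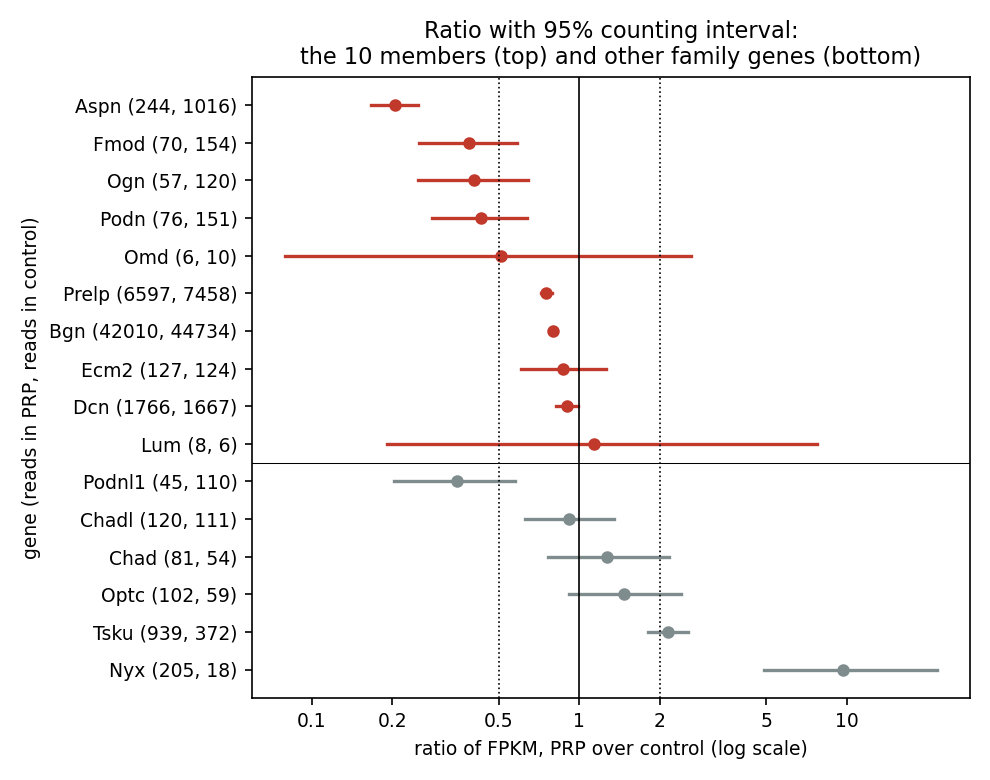
Ratio of FPKM, PRP over control, on a log axis for the 10 SLRP genes in red and for 6 other family genes in grey, with 95% counting intervals as lines and the reads of each library beside the gene name. Aspn has the lowest ratio (0.204), Lum and Omd have intervals that span both sides of 1, and Nyx and Tsku lie to the right of 2.

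Across the family, 4 genes passed an average FPKM of no less than 1, namely Aspn, Bgn, Dcn and Prelp. With a pseudocount of 1, only Aspn of these 4 was lower in PRP by at least 2-fold, as were 0.828% of the 13401 genes at that filter, and none of the 4 was higher by at least 2-fold, against 2.00% of those genes. Their median log2 fold change was -0.36, beside 0.01 for all 13401 genes. The other 6 genes are too low for that filter, so ratios without a pseudocount were also read for genes with at least 50 reads over both libraries. This measure was chosen after the values were seen. It holds 8 of the 10 genes and leaves out Lum and Omd.

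All 8 genes had a ratio under 1, as did 49.4% of the 14915 genes with at least 50 reads. The interval lay below 1 for 7 of the 8, Ecm2 being the exception, and for 24.0% of all genes. A ratio of at most 0.5 was found for Aspn, Fmod, Ogn and Podn, 4 of the 8 and 2.47% of all genes. The median ratio was 0.590 for the 8 genes and 1.005 for all. Since Aspn was picked for its low value in this very contrast, nothing is read from its share in these counts.

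The position of these genes was examined next, because Aspn, Ecm2, Omd and Ogn lie side by side on chromosome 13 inside the span of another gene. All 4 are on the plus strand and within Cenpp (chromosome 13, 49464023 to 49652785), a gene of 188.8 kb on the minus strand that encodes a centromere protein. Ecm2, Omd and Ogn each fit within 1 Cenpp intron with no shared exon base, whereas Aspn encloses a Cenpp exon and shares 7 exon bases with it. Cenpp had 1.03 FPKM in PRP and 2.65 FPKM in control, from 106 and 232 reads, with a ratio of 0.389 (0.275 to 0.543). The host gene and Aspn thus both had the lower value in PRP, on opposite strands.

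The neighbours did not share 1 ratio. From left to right the plus-strand genes read 0.872 for Ecm2, 0.204 for Aspn, 0.511 for Omd and 0.404 for Ogn, with only the second and the last clear of 1. Nol8, a nucleolar protein gene whose start lies next to the start of Cenpp, had 14.03 and 8.31 FPKM and a ratio of 1.69 (1.58 to 1.81). Tes3-ps, the next gene before Ecm2, had 40 and 42 reads and a ratio of 0.810 (0.417 to 1.57). The library kit keeps the strand of the RNA, but whether strand was used in counting is not given in the sources used here. Without it, reads over bases shared by genes on opposite strands cannot be told apart, which concerns 7 bases of the 2354 exon bases of Aspn. For Cenpp, 322 of 2564 exon bases lie in exons of other genes. The Cenpp exon that Aspn encloses lies almost wholly in an Aspn intron. Whether the Cenpp and Aspn values are separate readings was not tested.

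**Figure D3:**
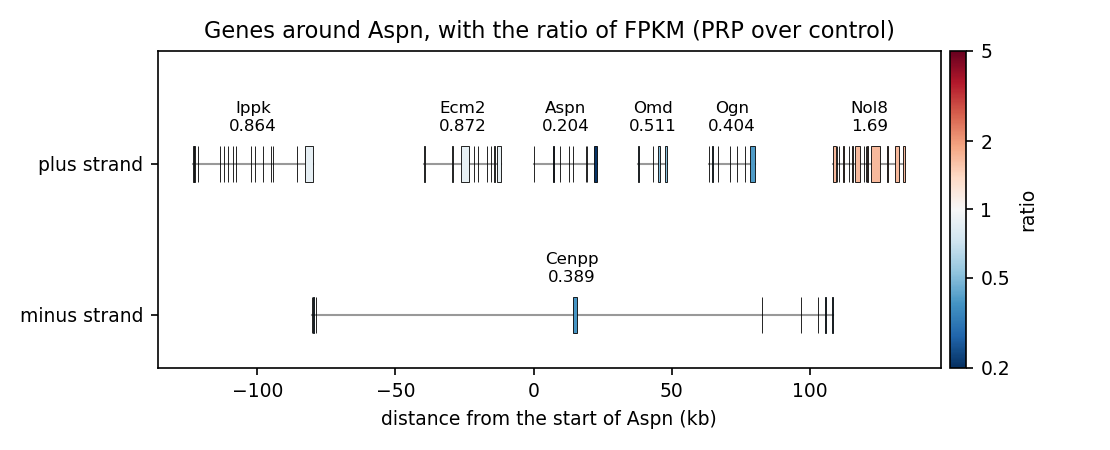
Genes around Aspn drawn to scale by distance from the start of Aspn in kb, with exons as boxes, strands on separate rows and the colour and number giving the ratio of FPKM, PRP over control. Ecm2, Aspn, Omd and Ogn sit inside the span of Cenpp, whose ratio was 0.389, and Nol8 to the right is the only gene shown with a ratio over 1 (1.69).

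Overlap matters more for Prelp. The antisense transcript Gm15851 (chromosome 1, 133906531 to 133914822, plus strand) has 662 exon bases, of which 350 lie in exons of Prelp. It was listed at 147.9 FPKM in PRP and 195.7 FPKM in control, from 3928 and 4424 reads, above Prelp itself. Its ratio of 0.756 (0.711 to 0.803) lay within the interval of Prelp. The split of reads between both genes is uncertain. Optc, the SLRP gene next to Prelp, had 102 and 59 reads and a ratio of 1.47 (0.917 to 2.40). In GENCODE M21, Podn overlaps Scp2 (51.6 and 82.7 FPKM, ratio 0.624) on the same strand without a shared exon base. The Podn windows at RefSeq starts (chromosome 4, 108031905 to 108032204 and 108030937 to 108031236) lie outside Scp2, which spans 108043839 to 108144998. The overlap thus rests on the longer GENCODE span. Bgn, Dcn, Lum and Fmod have no overlapping gene in GENCODE M21. Of the next coding genes, Haus7 beside Bgn had a ratio of 0.720 (0.657 to 0.789) and Btg2 after Fmod 1.03 (0.894 to 1.18). Echdc2 beyond Podn had a ratio of 0.694 (0.499 to 0.961). Btg1, the next before Dcn but 856800 bases away, had a ratio of 1.88 (1.69 to 2.10). Atp2b3 on the other side of Bgn had 21 and 18 reads, and Slc1a7 on the other side of Podn had 6 and 0. Within the GENCODE M21 span of Podn, the small RNA genes Gm23354 and Mir6397 had at most 2 reads in a library.

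The start regions of the genes are shown for Aspn and Ogn, neighbours that were both under a ratio of 0.5, and for Bgn and Prelp, which carry most of the family's RNA. Each window runs from 250 bases before the RefSeq start to 50 bases after it, 5′ to 3′ on the strand of the gene (RefSeq, GRCm38.p6). The windows are chr13:49544193-49544492 for Aspn (plus strand), chr13:49607765-49608064 for Ogn (plus strand), chrX:73483351-73483650 for Bgn (plus strand) and chr1:133921352-133921651 for Prelp (minus strand). Capitals mark matches to the motifs named after the sequences.
Aspn: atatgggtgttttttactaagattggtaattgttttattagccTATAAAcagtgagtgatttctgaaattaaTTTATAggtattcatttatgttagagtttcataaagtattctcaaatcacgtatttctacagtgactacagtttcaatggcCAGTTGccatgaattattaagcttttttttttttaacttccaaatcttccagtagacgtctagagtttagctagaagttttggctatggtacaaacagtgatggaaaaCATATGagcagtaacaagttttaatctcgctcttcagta
Ogn: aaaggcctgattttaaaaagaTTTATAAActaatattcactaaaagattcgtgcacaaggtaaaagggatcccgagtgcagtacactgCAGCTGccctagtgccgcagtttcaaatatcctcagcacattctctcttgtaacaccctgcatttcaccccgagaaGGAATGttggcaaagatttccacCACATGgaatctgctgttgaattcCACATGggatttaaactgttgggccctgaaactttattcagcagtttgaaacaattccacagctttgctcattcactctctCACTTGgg
Bgn: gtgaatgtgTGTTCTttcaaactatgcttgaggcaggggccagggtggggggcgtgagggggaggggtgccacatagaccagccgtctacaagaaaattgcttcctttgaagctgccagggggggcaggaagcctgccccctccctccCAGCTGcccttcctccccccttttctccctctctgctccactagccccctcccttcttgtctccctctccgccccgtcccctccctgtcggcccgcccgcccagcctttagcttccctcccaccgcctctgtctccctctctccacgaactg
Prelp: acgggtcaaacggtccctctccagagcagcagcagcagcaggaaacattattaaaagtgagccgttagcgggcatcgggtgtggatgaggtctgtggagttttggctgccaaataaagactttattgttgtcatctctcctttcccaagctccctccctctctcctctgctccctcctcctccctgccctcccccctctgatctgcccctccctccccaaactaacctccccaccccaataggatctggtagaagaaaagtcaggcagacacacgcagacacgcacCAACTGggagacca

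The windows differ in base composition. G and C made up 31.0% of the Aspn window and 42.3% of the Ogn window, against 63.7% for Bgn and 55.3% for Prelp. The median over 32851 windows of 300 bases was 52.7%, and 10% of windows lay under 39.7%. Fmod, which also had a ratio under 0.5, was at 51.0%, and the Ecm2 window was at 41.0% with a ratio near 1. The Omd window was at 37.7%, and Podn had windows at 77.0% and 63.0%. A link between composition and ratio was not tested. Windows were found for 8 of the 10 genes, not for Dcn and Lum.

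Motifs were searched on both strands, and positions are counted from the start site as base 0. The TATA letters TATAAA occur in the Aspn and Ogn windows, well before the start (beginning at bases -207 and -178 for Aspn, and as an overlapping pair at -229 and -227 for Ogn), and in 13.6% of all windows. The E-box letters CANNTG occur in all windows printed here and in 72.3% of all windows, with 4 matches in the Ogn window. The TEAD letters GGAATG occur in the Ogn window (14.7% of all windows), and the glucocorticoid receptor letters AGAACA in the Bgn window (19.0%). The AP-1 letters TGANTCA (7.81% of all windows), the cAMP response element TGACGTCA (1.79%), the SMAD box GTCTAGAC (0.213%) and the CArG box (1.63%) occur in none of the windows of the 8 genes. A match or its absence concerns these letters in these windows only.

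To see how far the rest of the family followed, 8 further SLRP genes were listed. Of these, 7 were found by gene symbol, and Kera was not. They did not all differ in 1 direction. Tsku, which encodes tsukushi, a class IV protein that binds signaling ligands, had 7.67 FPKM in PRP and 3.57 FPKM in control, a ratio of 2.15 (1.81 to 2.56) from 939 and 372 reads. Nyx, the nyctalopin gene known from the retina, had 205 and 18 reads, which is 0.986 and 0.102 FPKM and a ratio of 9.69 (4.91 to 21.8). Podnl1, the close relative of Podn, had 0.316 and 0.908 FPKM with a ratio of 0.348 (0.203 to 0.578), near the 0.428 of Podn. Chad (1.28, 0.765 to 2.16) and Chadl (0.920, 0.628 to 1.35) were within counting error, and Epyc had 2 reads in PRP and 0 in control. Only Chad and Tsku had an average FPKM of no less than 1.

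The collagens and fibril proteins that SLRPs bind were mostly lower as well. Of 22 such genes 20 had an average FPKM of no less than 1, and 18 of them were lower and 2 higher in PRP, where 49.1% of all 13401 genes at that filter were lower. The counting interval lay below 1 for 17 genes and above 1 for 1 gene, and 2 genes had none. Of all genes at that filter with whole reads, 26.1% had an interval below 1. The median log2 fold change was -0.67, against 0.01 for all genes at that filter. The lowest were Dpt, which encodes the decorin-binding protein dermatopontin (18.8 and 50.2 FPKM, ratio 0.374, 0.341 to 0.410), Col6a1 (23.1 and 55.9 FPKM, ratio 0.413) and Col6a2 (6.38 and 13.6 FPKM, ratio 0.469). Collagen VI is a known partner of decorin and biglycan. The fibrillar collagen I chain Col1a1 had 119 and 219 FPKM, a ratio of 0.542 (0.531 to 0.553), further from 1 than Bgn, Prelp and Dcn and nearer to 1 than Aspn. Highest in this list were Col5a2 (433 and 386 FPKM, ratio 1.12), Tnxb (5.44 and 4.86 FPKM, ratio 1.12, with no interval because its values did not give whole reads) and Col12a1 (57.5 and 61.9 FPKM, ratio 0.929).

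The enzymes that build the sugar chains were mostly lower by a small step. Of 34 genes for chondroitin, dermatan and keratan sulfate synthesis 24 had an average FPKM of no less than 1, with 20 lower and 4 higher, and a median log2 fold change of -0.22, beside the 49.1% of all genes that were lower. None of the 24 reached 2-fold in either direction, which is near the shares over all genes (0.828% lower and 2.00% higher) and is no result about these enzymes. The lowest were Chst15, which adds a second sulfate to chondroitin sulfate (1.01 and 2.93 FPKM, ratio 0.346, 0.282 to 0.423), B4galt7, which acts on the linker that joins the chain to the protein (3.50 and 5.45 FPKM, ratio 0.643), and Chst12 (5.87 and 8.01 FPKM, ratio 0.732). The highest were B3gnt2 (ratio 1.28), Ugdh, which makes the sugar donor UDP-glucuronate (21.4 and 17.3 FPKM, ratio 1.23), and the sulfate donor enzyme Papss2 (ratio 1.11). For Chst15 the ratio without a pseudocount is under 0.5, although its log2 fold change of -0.96 with a pseudocount of 1 is short of 2-fold.

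Of 15 tested genes in the list for processing and turnover of SLRPs, 8 were lower and 7 higher, with a median of -0.02. Of all 13401 tested genes 49.1% were lower, with a median of 0.01, so these counts are no result about the list. The list holds 11 tested proteases, of which 6 were lower and 5 higher, besides 3 inhibitors of metalloproteinases and an enhancer protein. The inhibitor genes Timp1, Timp2 and Timp3 had ratios of 1.16, 0.909 and 1.101. Bmp1, the protease that removes the propeptide of biglycan, had 8.39 and 12.3 FPKM (ratio 0.681, 0.636 to 0.730), and its enhancer protein Pcolce had 22.5 and 36.1 FPKM (ratio 0.622). Mmp2 was also among the lowest (ratio 0.678). Tll1, of the same protease family as Bmp1, had 1.53 and 0.604 FPKM (ratio 2.53, 1.95 to 3.30). The stromelysin gene Mmp3 was the only one past 2-fold with a pseudocount of 1, at 30.6 FPKM in PRP and 9.89 FPKM in control (ratio 3.09, 2.72 to 3.52). Among all tested genes, 2.00% were higher and 0.828% lower by at least 2-fold. Ctsk, a lysosomal collagenase, had 178 and 113 FPKM (ratio 1.58).

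Receptors and ligands linked to SLRP signaling had a median of -0.06 over 22 tested genes, 12 lower and 10 higher. Of all 13401 tested genes 49.1% were lower, with a median of 0.01. The counts are near that share and are no result about this list. Tgfbr3, which the study followed as a target of exosomal microRNAs, was lowest (7.64 and 15.4 FPKM, ratio 0.494), followed by Lrp1 (ratio 0.692) and Bmpr1a (ratio 0.705). The study describes picking Tgfbr3 by crossing a transcriptome of exosome-treated and vehicle-treated FAPs with predicted microRNA targets. These libraries may be that transcriptome, so nothing is read from its low place. Kdr, which is also among the endothelial markers, was highest (1531 and 462 reads, ratio 2.82, 2.43 to 3.28), followed by Ccn2 (316 and 212 FPKM, ratio 1.49) and Met (ratio 1.66) in order of log2 fold change. The Toll-like receptor genes, through which free biglycan acts, had ratios of 1.39 for Tlr2 (0.944 to 2.07) and 1.21 for Tlr4 (1.04 to 1.40).

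**Figure D4:**
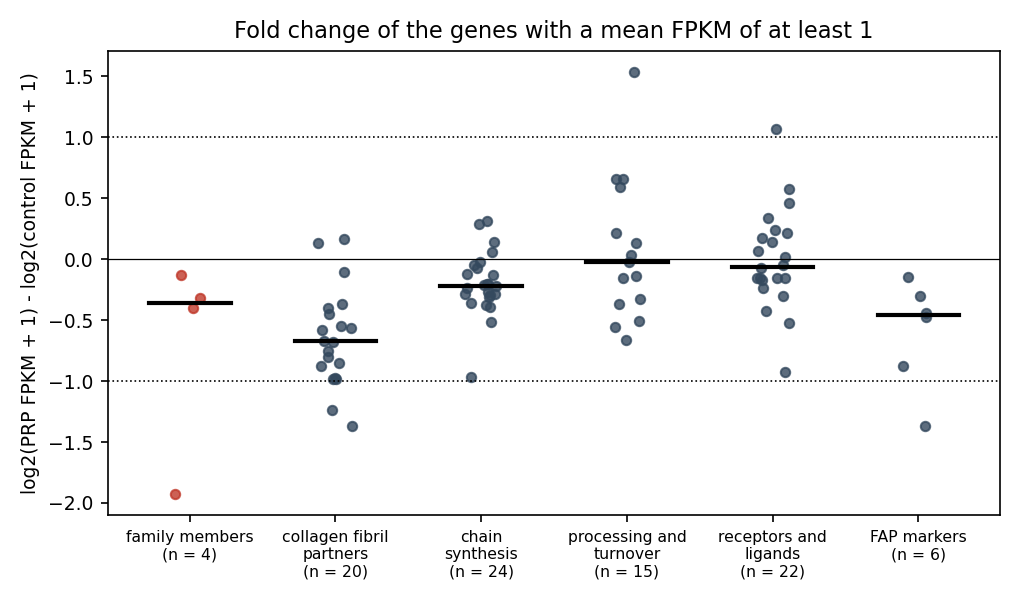
Difference of log2(FPKM + 1) between the PRP and control libraries for single genes with an average FPKM of no less than 1, in 6 groups, with black bars at the group medians and dotted lines at 2-fold. Among the family members Aspn stands alone at -1.93, the collagen fibril partners centre on -0.67, and the processing and receptor lists spread on both sides of 0.

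Markers of cell types that could carry SLRP transcripts were read beside these results. All 6 FAP markers with an average FPKM of no less than 1 were lower in PRP, as were 49.1% of the 13401 genes at that filter. The summed level of the 7 markers was 377.4 FPKM in PRP and 581.4 FPKM in control. Col1a1 and Dpt are in this list and in the collagen list. Of 4 tenocyte markers, the summed level was 24.1 and 33.2 FPKM, almost all of it Thbs4 (21.3 and 29.8 FPKM), and the defining genes Scx (0.671 and 0.788 FPKM) and Tnmd (0.332 and 0.779 FPKM, 18 and 36 reads) were low. Of 7 chondrocyte and osteoblast markers, Acan, Sp7 and Bglap were at 0 in both libraries and the sum was 3.97 and 3.77 FPKM. Adipocyte markers summed to 48.4 and 41.7 FPKM over 6 genes, mostly Fabp4, and pericyte and smooth muscle markers to 18.8 and 12.0 FPKM over 4 genes, mostly Myh11. Endothelial markers summed to 9.24 and 5.21 FPKM over 4 genes, with Pecam1 and Cdh5 under 1 FPKM. Macrophage markers summed to 9.51 and 9.95 FPKM over 4 genes with Ptprc and Adgre1 near 0, while Cd68 had a ratio of 1.98 (1.41 to 2.82) and Lyz2 a ratio of 0.648 (0.512 to 0.820). Schwann cell and platelet markers stayed under 1 FPKM in sum. Myogenic markers summed to 2.91 and 3.43 FPKM over 4 genes, with Pax7 and Myog at 0. The part of FAP marker levels in the SLRP differences was not tested.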

How the data were processed

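RNA-seq of 2 cultures was analysed, 1 per group, as grouped by the sample titles. The authors trimmed reads with fastp 0.23.4, aligned them to mm10 with STAR 2.5.3a, counted them per gene with featureCounts and deposited FPKM values. The annotation release, the strand setting and the step from counts to FPKM are not given in the sources used here. Gene IDs were matched to GENCODE M21 (GRCm38), where 41492 of 44291 (93.7%) had an entry. FPKM times exon length gave whole reads in both libraries, within 0.001 reads, for 26406 of 28160 genes above 0 (93.8%). Even read numbers were in excess (79.3% and 80.3% of genes with up to 8 reads), so intervals used reads divided by 2. PCR duplicates are not accounted for.

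Log2 fold changes were differences of log2(FPKM + 1), PRP minus control, for genes that averaged 1 FPKM or more (called tested). No p-value is possible with 1 library per group. The named genes are the 10 members, the other SLRP genes, overlapping and adjacent genes, the 3 lowest and 3 highest of each partner list, and the 3 nearest to Aspn. Markers are named by their lists. Col1a1, Timp1 to Timp3, Tlr2 and Tlr4 are list members named after their values were seen. Members and lists were chosen with earlier results of these data known. Alternatives were pseudocounts, filters, scalings, fold thresholds, removal of overlapping genes, counting of single reads and transcript length. Python 3.11.15, NumPy 2.4.6, pandas 2.3.3, SciPy 1.17.1 and matplotlib 3.10.9 were used, and the procedures were tested on simulated data.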

Additional observations from a re-analysis of the deposited data

How the results depend on the processing

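No paired analysis was possible because PRP and control are single libraries, and no library could be left out. Of the 10 genes, 9 were lower in PRP in the main setting, Lum being the exception, and no scaling changed this. This count includes Aspn, picked for its low value, and Omd with 6 and 10 reads. The share of all genes that were lower was not worked out without a filter. With at least 50 reads, 49.4% of 14915 genes had a ratio under 1. A pseudocount cannot change the direction of a difference, so those settings say nothing about it. The counting intervals of Ecm2, Omd and Lum held 1. Aspn was at -2.25 with a pseudocount of 0.1 and at -1.22 with a pseudocount of 5. It was the 1 member lower by at least 2-fold under each other setting except the 4-fold threshold, which left 0. The further exception, ratios without a pseudocount at 50 or more reads, added after the data were seen, gave 4 members and a median log2 ratio of -0.82, against 1 and -0.36. The other settings moved that median between -0.40 and -0.34. Counting every read once moved no interval of the 10 genes to the other side of 1.

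Genes lower and higher by at least 2-fold among all tested were 111 and 268. They were 268 and 471 with a pseudocount of 0.1, 29 and 84 with a pseudocount of 5, 56 and 154 among genes averaging 5 FPKM, 612 and 824 at 1.5-fold, 3 and 23 at 4-fold, and 369 and 597 by ratio without a pseudocount. They were 216 and 380 with both libraries brought to 1 sum, and 247 and 391 when that sum left out mitochondrial genes and the top 50. Rescaling multiplies all values, so a pseudocount of 1 weighs less. Among genes averaging 5 FPKM or more the median of the processing and turnover list was -0.14 and that of the receptors and ligands -0.20.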
